A study of Mus musculus with 14 samples.

Results

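Augmin is a complex of 8 proteins, encoded by Haus1 to Haus8, and the messenger RNA of these 8 subunits was followed here in mouse oocytes. The family was chosen by the level of Haus1, which was far higher with Rnaseh1 than with mCherry in one of the data sets, and the question was whether the other subunits followed it. Members were found by gene symbol: all 8 were present and passed the expression filter in both deposited tables, of 35389 genes in the first table and 35341 in the second. Their values are transcripts per 1000000 transcripts (TPM), which are scaled to gene length, so that levels of different subunits can be set side by side.

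Polyadenylated RNA was sequenced from oocytes that overexpressed Rnaseh1, the nuclease that cuts the RNA strand of RNA:DNA hybrids, or mCherry, a red fluorescent protein that served as the control. The first table held 8 libraries, with Rnaseh1 or mCherry in SN oocytes, whose chromatin surrounds the nucleolus and is largely silent, and in NSN oocytes, an earlier state in which it does not. The second table, called the rescue set after its labels, held 6 libraries of oocytes with Rnaseh1 plus Supt6, with Rnaseh1 or with mCherry, and its labels give no stage. Supt6 encodes a chaperone of histones at transcribed genes. Each of the 7 groups had 2 libraries. The labels give no strain, age, dose or time, and do not say whether the 2 libraries came from separate animals or pools, so p-values measure only the spread between these libraries, which may be technical. The number of reads is unknown, since TPM keeps no depth.

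Augmin binds along the side of an existing microtubule and recruits the gamma-tubulin ring complex there, so that a new microtubule branches off. Oocytes build the meiotic spindle without centrioles, from organizing centres that lack them. In the human complex, HAUS2, HAUS6, HAUS7 and HAUS8 make up the part that touches the microtubule, with HAUS8 holding a main contact site. HAUS1, HAUS3, HAUS4 and HAUS5 make up the other part, an elongated stalk. HAUS6 also binds NEDD1, the adaptor of the gamma-tubulin ring complex.

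The 8 genes lie on 8 different chromosomes, given here by GRCm38 coordinates. Of the stalk subunits, Haus1 lies at chromosome 18, 77757567 to 77773886, on the minus strand, Haus3 at chromosome 5, 34153880 to 34169527, minus strand, Haus4 at chromosome 14, 54541785 to 54554616, minus strand, and Haus5 at chromosome 7, 30653711 to 30664994, minus strand. Of the microtubule-side subunits, Haus2 lies at chromosome 2, 120609383 to 120621560, plus strand, Haus6 at chromosome 4, 86578855 to 86612055, minus strand, Haus7 at chromosome X, 73437315 to 73459044, minus strand, and Haus8 at chromosome 8, 71248561 to 71272934, minus strand. All are protein-coding.

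The subunits differ in base composition. Their longest protein-coding transcripts in the GENCODE M21 annotation fell into a GC-rich and a GC-poor set. Haus8 held 58.2% G and C, Haus5 56.2%, Haus4 55.3% and Haus7 51.8%, against 44.1% in Haus1, 41.4% in Haus2, 41.3% in Haus6 and 37.3% in Haus3.

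The contrast shows in the coding sequence itself. Shown are 120 bases from the middle of the coding sequence of the GC-poorest subunits (Haus3 and Haus6) and of the GC-richest (Haus8 and Haus5), in frame from the first base, with G or C at the last position of a codon in capitals:
Haus3 (chromosome 5, coding bases 796 to 915): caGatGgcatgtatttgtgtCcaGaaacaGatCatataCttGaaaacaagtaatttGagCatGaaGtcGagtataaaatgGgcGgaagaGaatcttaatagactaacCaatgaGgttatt
Haus6 (chromosome 4, coding bases 1339 to 1458): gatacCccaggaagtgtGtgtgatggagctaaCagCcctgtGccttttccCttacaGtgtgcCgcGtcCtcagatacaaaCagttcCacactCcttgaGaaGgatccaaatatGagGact
Haus8 (chromosome 8, coding bases 499 to 618): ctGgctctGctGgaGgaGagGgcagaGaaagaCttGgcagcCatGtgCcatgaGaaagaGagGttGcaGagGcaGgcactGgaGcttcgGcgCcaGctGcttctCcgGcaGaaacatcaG
Haus5 (chromosome 7, coding bases 868 to 987): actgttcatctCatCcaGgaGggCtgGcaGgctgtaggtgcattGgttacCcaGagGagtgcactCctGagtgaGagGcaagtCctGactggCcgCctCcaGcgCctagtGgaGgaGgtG
Of the 40 codons of each stretch, 18 ended in G or C in Haus3, 17 in Haus6, 29 in Haus8 and 26 in Haus5. Over the whole coding sequence the share of last codon positions that were G or C was 36.0% in Haus3, 36.4% in Haus6, 44.9% in Haus2 and 45.7% in Haus1, against 59.9% in Haus7, 62.2% in Haus8, 63.5% in Haus5 and 71.9% in Haus4.

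Upstream of the start sites the subunits also differed in their letters. The 250 bases before the RefSeq start (GRCm38.p6) were available for 7 of the 8 symbols. They were searched on both strands for 5 motifs: CCAAT (the CCAAT box), GGGCGG (the GC box), TATAAA (the TATA box), TGACGTCA (the cAMP response element) and TTTGAA (the cell cycle homology element). No motif contains another. The CCAAT box was in 4 of the 7 symbols (Haus3, Haus4, Haus6 and Haus7), against 33.8% of 32851 mouse promoters, and the GC box in 5 (Haus2, Haus3, Haus4, Haus7 and Haus8), against 32.7%. The other motifs were in 0 of the 7, against 12.4% for the TATA box, 1.5% for the cAMP response element and 16.0% for the cell cycle homology element. The Haus6 and Haus5 stretches are printed because Haus6 is of the GC-poor and Haus5 of the GC-rich set. Both windows lie outside the annotated span of their own gene. Capitals mark the CCAAT box, read on the reverse strand as ATTGG:
Haus6 (chr4:86612056-86612305, minus strand): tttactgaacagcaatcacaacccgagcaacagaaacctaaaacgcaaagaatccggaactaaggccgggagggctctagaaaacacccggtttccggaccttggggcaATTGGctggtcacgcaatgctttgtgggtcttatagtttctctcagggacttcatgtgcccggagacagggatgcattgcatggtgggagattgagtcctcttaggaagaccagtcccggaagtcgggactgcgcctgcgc
Haus5 (chr7:30664995-30665244, minus strand): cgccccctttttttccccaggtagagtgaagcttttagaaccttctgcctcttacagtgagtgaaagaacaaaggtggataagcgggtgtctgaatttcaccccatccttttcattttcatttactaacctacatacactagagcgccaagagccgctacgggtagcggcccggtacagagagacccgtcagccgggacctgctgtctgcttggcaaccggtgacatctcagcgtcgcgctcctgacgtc
The Haus5 stretch held none of the 5 motifs, and a missing match says only that these letters are not in this window.

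The overexpressed genes were measured first as a check of the labels. Rnaseh1 ran from 1083 to 1361 TPM in SN oocytes with Rnaseh1, against 81.0 to 131 with mCherry. In NSN oocytes with Rnaseh1 it was at 745 TPM in replicate 1 and 229 TPM in replicate 2, against 108 to 137 with mCherry. Within its table, NSN Rnaseh1 replicate 2 thus had the lowest Rnaseh1 of the libraries labelled with it. That library also had the fewest genes at 1 TPM or more (10036, against 10572 to 11811 in the other 7). In the rescue set it ran from 2017 to 2270 TPM with Rnaseh1 plus Supt6 and from 625 to 1243 with Rnaseh1, against 114 to 125 with mCherry. Supt6 was at 21.0 and 28.2 TPM with Rnaseh1 plus Supt6, against 2.55 to 3.28 in the other rescue libraries. All oocyte markers listed were at 1 TPM or more in every library (12 in the first table, 11 in the rescue set), with summed levels of 18431 to 36221 TPM. Of 12 cumulus and granulosa markers, 2 to 5 reached 1 TPM, at sums of 24.9 to 55.3 TPM, and 0 of the blood, immune, theca and stroma markers did. The 2 libraries of NSN Rnaseh1 lay far apart, as did those of SN mCherry: the SD of the replicate difference over genes was 1.28 and 1.05 on the log2 scale, against 0.352 to 0.689 in the other 5 groups. Such a difference does not say which library of a pair is unlike the rest.

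Haus3 dominated the family's messenger RNA, while the rank of Haus1 among the 8 subunits ran from 1 (NSN Rnaseh1 replicate 2) to 6 (rescue mCherry). Haus3 was the most abundant subunit in 13 of the 14 libraries, at 377 to 583 TPM in the first table and 326 to 610 TPM in the rescue set, and held 42.8% to 63.3% of the summed TPM of the 8 subunits. Haus2 was the lowest in all 14, at 0.74 to 2.91 TPM in the first table and 0.4 to 1.41 TPM in the rescue set, near the filter of 1 TPM in at least 2 libraries. Haus6 lay between 4.06 and 11.5 TPM in the first table and between 5.76 and 11.01 TPM in the rescue set. Haus1 ranged widely in both tables, with 53.1 to 574 TPM in the first and 29.9 to 565 TPM in the rescue set. The subunits were thus not present at equal levels as messenger RNA in any library, although they form one complex as proteins.

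**Figure D1:**
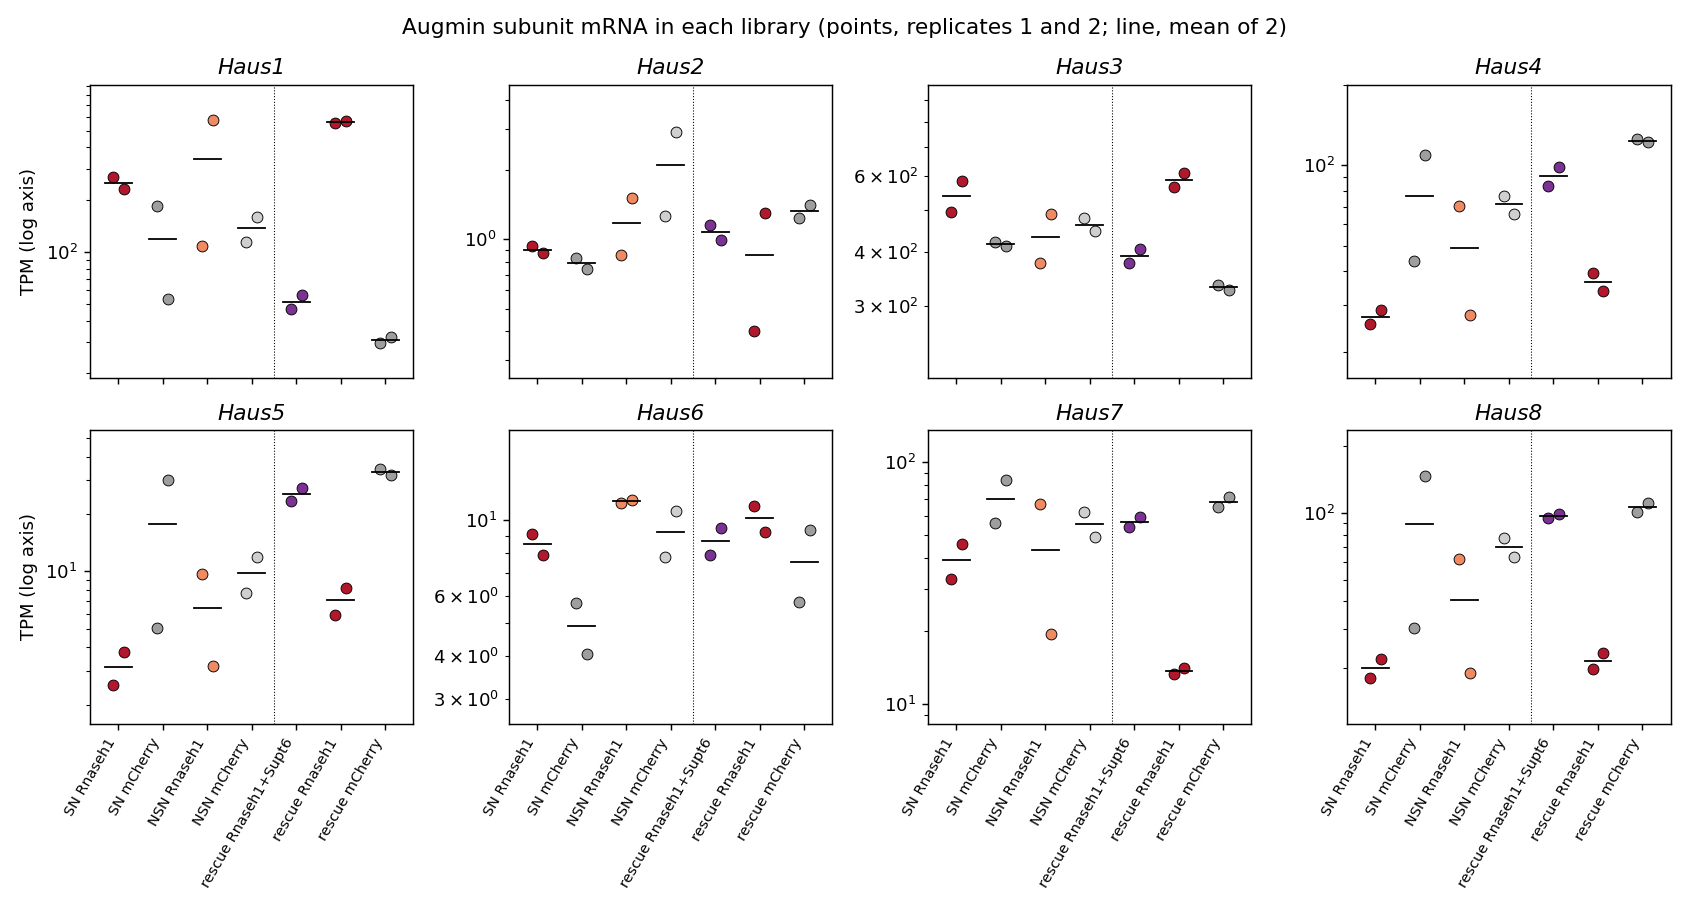
TPM (log axis) of each augmin subunit in each library, with the groups on the horizontal axis and the first table left of the dotted line; points are replicates and bars their mean. Within the rescue set, Haus1 and Haus3 were highest with Rnaseh1, and Haus4, Haus5, Haus7 and Haus8 lowest there. In the first table both libraries of SN mCherry and of NSN Rnaseh1 lay far apart for Haus1, Haus4, Haus5 and Haus8.

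The rescue set gave the clearest separation, and the values of Rnaseh1 against mCherry are a description only, since that comparison chose the family. Haus1 was at 554 and 565 TPM with Rnaseh1, against 29.9 and 32.1 TPM with mCherry. Its level was 18.1-fold higher, a difference of 4.13 on the log2(TPM + 1) scale (SE 0.12), which was the 3rd highest of 12859 genes tested. Haus3, the most abundant stalk subunit, was at 567 and 610 TPM with Rnaseh1, against 326 and 336 TPM with mCherry. Its log2 difference was 0.83 (SE 0.08), so Haus3 was higher in both Rnaseh1 libraries but by far less than Haus1.

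The other stalk subunits had the opposite direction. Haus4 was at 33.7 and 39.3 TPM with Rnaseh1, against 123 and 125 TPM with mCherry, a log2 difference of -1.74 (SE 0.13). Haus5 was at 5.88 and 8.21 TPM with Rnaseh1, against 32.2 and 34.3 TPM with mCherry, a log2 difference of -2.10 (SE 0.19). In both genes each Rnaseh1 library lay below both mCherry libraries, a separation that was not counted over all genes of the rescue set. Within the stalk, 2 subunits were therefore higher with Rnaseh1 and 2 were lower.

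The microtubule-side subunits were lower or overlapped. Haus8, which carries a main microtubule contact, was at 19.7 and 23.3 TPM with Rnaseh1, against 102 and 112 TPM with mCherry, a log2 difference of -2.26 (SE 0.12). Haus7 was at 13.3 and 14.1 TPM with Rnaseh1, against 65.1 and 71.8 TPM with mCherry, a log2 difference of -2.24 (SE 0.13). Haus6, which binds NEDD1, was at 9.24 and 11.01 TPM with Rnaseh1, against 5.76 and 9.37 TPM with mCherry, and the groups overlapped (log2 difference 0.41, SE 0.26). Haus2 overlapped too, at 0.4 and 1.3 TPM with Rnaseh1, against 1.24 and 1.41 TPM with mCherry (log2 difference -0.37, SE 0.30).

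In this comparison 6 of the 8 subunits were past the threshold of limma's adjusted p, 2 higher (Haus1 and Haus3) and 4 lower (Haus4, Haus5, Haus7 and Haus8). The share over all 12859 genes tested was 66.5%, with 20.3% higher and 46.2% lower, so most genes of the table were past it, and nothing is read from the subunits' count. Without Haus1, 1 of 7 was higher and 4 were lower. The median log2 difference of the 8 subunits was -1.06, beside -0.52 for all genes tested. Relative to that median, Haus1 was at 4.65, Haus3 at 1.35, Haus6 at 0.93, Haus2 at 0.15, Haus4 at -1.22, Haus5 at -1.58, Haus7 at -1.72 and Haus8 at -1.74 on the log2 scale. The bulk values cannot tell fewer oocytes with a transcript from less of it per oocyte.

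Adding Supt6 was compared with Rnaseh1 alone to ask whether the subunits moved with it. These libraries overlap with those that chose the family, so Haus1 is again a description. It was at 46.9 and 56.5 TPM with Rnaseh1 plus Supt6, against 554 and 565 TPM with Rnaseh1, a log2 difference of -3.42 (SE 0.12). Of the 7 other subunits, 4 rose, 1 fell and 2 did not pass in limma. As deposited, the shares over all genes tested were 58.9% in either direction, 41.6% higher and 17.4% lower, and the median of all genes was 0.44. With a trend in GC content removed from each library, 3 of the 7 passed as higher and 0 as lower. In that fit 3206 of 12603 genes passed as higher and 3112 as lower, 50.1% in either direction.

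Both GC-rich microtubule-side subunits rose. Haus8 was at 94.8 and 98.6 TPM with Rnaseh1 plus Supt6, against 19.7 and 23.3 TPM with Rnaseh1, a log2 fold change of 2.12 (SE 0.12, limma adjusted p = 1.1e-05). Haus7 was at 53.9 and 59.3 TPM, against 13.3 and 14.1 TPM with Rnaseh1, a log2 fold change of 1.97 (SE 0.13, limma adjusted p = 1.8e-05). For both genes every library with Supt6 lay above every library with Rnaseh1 alone. Such separation was not counted over all genes of the rescue set, of which 58.9% passed in this comparison. Haus6 was at 7.89 and 9.49 TPM, against 9.24 and 11.01 TPM with Rnaseh1 (-0.20, SE 0.26, limma adjusted p = 0.53). Haus2 was at 0.99 and 1.15 TPM, against 0.4 and 1.3 TPM with Rnaseh1 (0.21, SE 0.30, limma adjusted p = 0.59).

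Of the stalk subunits, Haus4 rose to 83.7 and 98.3 TPM with Rnaseh1 plus Supt6, against 33.7 and 39.3 TPM with Rnaseh1 (1.29, SE 0.13, limma adjusted p = 0.00013). Haus5 rose to 23.5 and 27.5 TPM, against 5.88 and 8.21 TPM with Rnaseh1 (1.73, SE 0.19, limma adjusted p = 0.00023). Haus3 fell to 377 and 406 TPM, against 567 and 610 TPM with Rnaseh1 (-0.59, SE 0.08, limma adjusted p = 0.00061). The direction again divided the stalk.

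Against mCherry, oocytes with Rnaseh1 plus Supt6 were much closer. Haus1 was at 46.9 and 56.5 TPM with Rnaseh1 plus Supt6, against 29.9 and 32.1 TPM with mCherry, a log2 difference of 0.72 (SE 0.12), which is a description. With any 1 of these 4 libraries left out, the difference for Haus1 was 0.58 to 0.85. Of the 7 other subunits, 0 passed in limma, with adjusted p from 0.063 to 0.79, where 13.3% of all genes tested did, 5.71% higher and 7.6% lower. That share rests on all 4 libraries: 1711 of all genes passed, and 85 to 320 when any 1 of the 4 was left out. Haus3 and Haus4 had an unadjusted p under 0.05.

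Haus4 came nearest, at 83.7 and 98.3 TPM with Rnaseh1 plus Supt6, against 123 and 125 TPM with mCherry (-0.44, SE 0.13, limma adjusted p = 0.063). It passed at the same fold change when Rnaseh1 replicate 1 or Rnaseh1 replicate 2 was left out of the fit (limma adjusted p = 0.028 for each), and under 4 other settings. Haus3 was at 377 and 406 TPM with Rnaseh1 plus Supt6, against 326 and 336 TPM with mCherry (0.24, SE 0.08, limma adjusted p = 0.095). Haus8 was at 94.8 and 98.6 TPM, against 102 and 112 TPM with mCherry (-0.14, SE 0.12), and Haus7 at 53.9 and 59.3 TPM, against 65.1 and 71.8 TPM with mCherry (-0.27, SE 0.13). A p past the threshold in one comparison and not in the other does not show that the subunits returned to the mCherry level.

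The composition of the family moved with these differences. A single scaling factor per library leaves these shares unchanged. Haus4, Haus5, Haus7 and Haus8 together held 37.1% and 37.5% of the summed augmin TPM with Rnaseh1 plus Supt6 and 6.46% and 6.27% with Rnaseh1, against 46.6% and 47.8% with mCherry. Haus1 held 7.14 ± 0.469% with Rnaseh1 plus Supt6 and 45.2 ± 0.77% with Rnaseh1, against 4.41 ± 0.182% with mCherry (SD, n = 2 each). Haus3 held 54.2 ± 0.769% with Rnaseh1 plus Supt6 and 47.5 ± 0.984% with Rnaseh1, against 47.1 ± 1.36% with mCherry. The summed TPM was 689 and 757 with Rnaseh1 plus Supt6 and 1211 and 1265 with Rnaseh1, against 699 and 707 with mCherry.

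**Figure D2:**
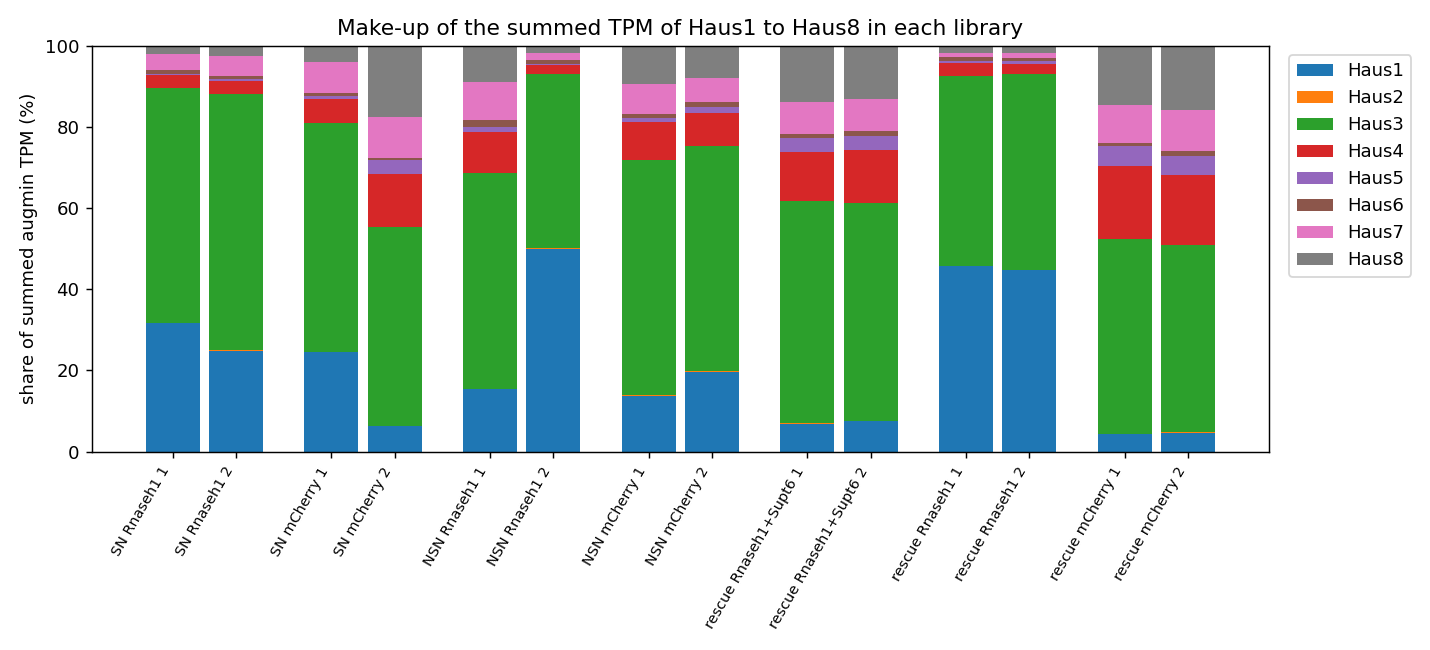
Share (%) of the summed TPM of Haus1 to Haus8 held by each subunit, 1 bar per library, numbered by replicate. Haus1 held 45.8% and 44.7% in the rescue Rnaseh1 libraries and 50.02% in NSN Rnaseh1 replicate 2, where Haus4, Haus5, Haus7 and Haus8 together held 6.03% to 6.46%.

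The first table holds other libraries, so there the effect of Rnaseh1 could be tested for all 8 subunits. In SN oocytes 0 of the 8 passed in limma, with adjusted p from 0.61 to 0.94 and 0 subunits at an unadjusted p under 0.05. Over all 12736 genes, 0% passed and 859 genes had an unadjusted p under 0.05. The smallest limma adjusted p of any gene was 0.41. Rnaseh1 itself, at 1083 to 1361 TPM against 81.0 to 131 TPM with mCherry, was thus among the genes that did not pass. A lack of calls in this comparison therefore cannot show that the subunits were unchanged. The libraries did not overlap between Rnaseh1 and mCherry for any of the 8 subunits, 4 higher (Haus1, Haus2, Haus3 and Haus6) and 4 lower (Haus4, Haus5, Haus7 and Haus8), where 50.7% of all genes tested showed such a separation.

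In the SN stalk, Haus1 was at 229 and 271 TPM with Rnaseh1, against 53.1 and 183 TPM with mCherry (log2 fold change 1.33, SE 0.83, limma adjusted p = 0.61). Haus3 was at 496 and 583 TPM with Rnaseh1, against 412 and 421 TPM with mCherry (0.37, SE 0.30). Haus4 was at 25.5 and 28.6 TPM with Rnaseh1, against 43.9 and 109 TPM with mCherry (-1.33, SE 0.57). The distance between the mCherry libraries exceeded that from the nearer of them to Rnaseh1 for all subunits but Haus3 and Haus6. Haus5 was at 2.55 and 3.76 TPM with Rnaseh1, against 5.05 and 30.3 TPM with mCherry (-1.74, SE 0.82).

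On the microtubule side, Haus8 was at 18.0 and 22.0 TPM with Rnaseh1, against 30.4 and 148 TPM with mCherry (-1.71, SE 0.79). Haus7 was at 32.7 and 45.7 TPM with Rnaseh1, against 56.0 and 84.3 TPM with mCherry (-0.81, SE 0.58). The high mCherry value came from SN mCherry replicate 2 in both. Haus6 was at 7.9 and 9.09 TPM with Rnaseh1, against 4.06 and 5.73 TPM with mCherry (0.70, SE 0.40). Haus2 was at 0.87 and 0.93 TPM with Rnaseh1, against 0.74 and 0.83 TPM with mCherry (0.09, SE 0.44), all under 1 TPM.

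The sizes depended on which SN mCherry library was kept. Without either replicate in turn of SN Rnaseh1 and SN mCherry, the log2 fold change of Haus1 ran from 0.44 to 2.21, that of Haus8 from -2.83 to -0.59 and that of Haus5 from -2.93 to -0.56. The ends at 0.44, -0.59 and -0.56 were those without SN mCherry replicate 2. Every subunit kept its direction in each of these fits.

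In NSN oocytes 0 of the 8 subunits passed in limma, with adjusted p from 0.76 to 0.92 and 0 subunits at an unadjusted p under 0.05. Over all 12736 genes 0% passed, with 353 at an unadjusted p under 0.05. Without NSN Rnaseh1 replicate 1, 99 genes passed as higher and 1053 as lower, 9.24% of 12474 tested, with 0 of the subunits among them. Haus1 was at 108 and 574 TPM with Rnaseh1, against 114 and 159 TPM with mCherry (log2 fold change 0.89, SE 0.83, limma adjusted p = 0.76). The Rnaseh1 libraries lay on both sides of the mCherry libraries, with the high value in replicate 2. Without that library the fold change of Haus1 was -0.31, and without replicate 1 it was 2.08.

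The GC-rich subunits divided the NSN Rnaseh1 libraries the other way. Haus8 was at 19.0 and 62.3 TPM with Rnaseh1, against 63.0 and 77.2 TPM with mCherry (-0.99, SE 0.79), and -0.16 without NSN Rnaseh1 replicate 2. Haus4 was at 27.4 and 70.4 TPM with Rnaseh1, against 65.8 and 76.9 TPM with mCherry (-0.68, SE 0.57). Haus7 was at 19.5 and 67.2 TPM with Rnaseh1, against 48.8 and 62.1 TPM with mCherry (-0.58, SE 0.58), and Haus5 at 3.2 and 9.69 TPM with Rnaseh1, against 7.73 and 11.95 TPM with mCherry (-0.67, SE 0.82). Replicate 2 held the low value in all 4 genes. Without it Haus7 was at 0.28, Haus4 at -0.016 and Haus5 at 0.0078.

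Haus3 was at 377 and 491 TPM in NSN oocytes with Rnaseh1, against 446 and 479 TPM with mCherry (-0.10, SE 0.30). Haus6 was at 11.3 and 11.5 TPM with Rnaseh1, against 7.8 and 10.6 TPM with mCherry (0.29, SE 0.40), and Haus2 at 0.85 and 1.5 TPM with Rnaseh1, against 1.26 and 2.91 TPM with mCherry (-0.47, SE 0.44). The libraries did not overlap for 2 of the 8 subunits, Haus6 (higher) and Haus8 (lower), where 32.9% of all genes tested were separated. Median log2 fold changes of the 8 subunits were -0.36 in SN and -0.53 in NSN oocytes, beside -0.22 and -0.29 for all genes tested.

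Whether Rnaseh1 acted differently by stage was tested as an interaction, and 0 of the 8 subunits passed in limma or had an unadjusted p under 0.05 (adjusted p = 1 for each). Among all genes 0% passed and 288 had an unadjusted p under 0.05. The SN effect minus the NSN effect was 0.44 (SE 1.18) for Haus1 and ran from -1.08 (SE 1.16) for Haus5 to 0.56 (SE 0.62) for Haus2. Between stages, 0 of the 8 passed with mCherry or with Rnaseh1 (limma adjusted p = 1 for each) or had an unadjusted p under 0.05, and 0% of genes passed in either, with 328 and 584 genes at an unadjusted p under 0.05. With mCherry, Haus3 and Haus6 were lower in both SN than in both NSN libraries, where 27.5% of genes were separated. Haus2 was also lower, but reached 1 TPM in NSN libraries alone and so passed the filter through them, and it is not counted. Haus6 was at 4.06 and 5.73 TPM in SN, against 7.8 and 10.6 TPM in NSN oocytes with mCherry (-0.79, SE 0.40). With Rnaseh1, Haus3 was higher and Haus6 lower in SN, 2 of 8 beside 26.6%. Without NSN Rnaseh1 replicate 1, 107 genes passed as higher and 5 as lower between these stages in limma, with 0 of the subunits among them.

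Across groups, Haus1 was ordered by its mean within each table. In the first it averaged 250.04 ± 29.4 TPM in SN and 341 ± 329 TPM in NSN oocytes with Rnaseh1, against 118 ± 91.9 TPM in SN and 136 ± 31.3 TPM in NSN oocytes with mCherry (SD, n = 2 each). The order of these means from the top was NSN Rnaseh1, SN Rnaseh1, NSN mCherry and SN mCherry. The top place rested on NSN Rnaseh1 replicate 2, at 574 TPM. NSN Rnaseh1 replicate 1, at 108 TPM, lay below both NSN mCherry libraries, at 114 and 159 TPM. In the rescue set it averaged 51.7 ± 6.82 TPM with Rnaseh1 plus Supt6 and 560 ± 7.85 TPM with Rnaseh1. With mCherry it averaged 31.0 ± 1.54 TPM there. No rescue group overlapped another, a separation that was not counted over all genes there. It is a description only, since the family was chosen by Haus1 in these libraries. The tables were normalized separately, so levels are not compared between them.

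**Figure D3:**
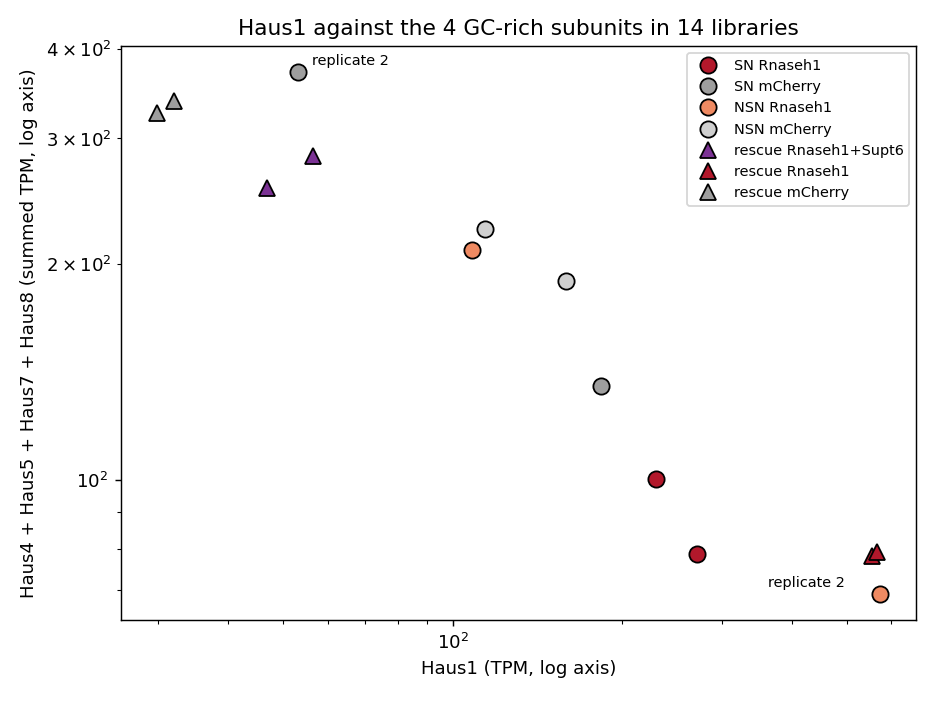
Haus1 TPM against the summed TPM of Haus4, Haus5, Haus7 and Haus8 (log axes), 1 point per library, circles for the first table and triangles for the rescue set. In the first table the sum was highest, at 372 TPM, in SN mCherry replicate 2 and lowest, at 69.1 TPM, in NSN Rnaseh1 replicate 2, which had the most Haus1. In the rescue set it was lowest with Rnaseh1, at 78.2 and 79.3 TPM, where Haus1 was highest.

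Within single libraries, the ratio of Haus1 to Haus8, which a single scaling factor per library leaves unchanged, set the groups apart in the rescue set. The family was chosen by Haus1 in that set, so this separation is a description. The ratio was 0.494 and 0.573 with Rnaseh1 plus Supt6 and 28.1 and 24.2 with Rnaseh1, against 0.294 and 0.288 with mCherry. In SN oocytes it was 15.1 and 10.4 with Rnaseh1, against 6.01 and 0.36 with mCherry. In NSN oocytes it was 1.74 and 30.1 with Rnaseh1, against 1.48 and 2.52 with mCherry. NSN Rnaseh1 replicate 2 thus had the highest ratio of the first table, and NSN Rnaseh1 replicate 1 lay between both NSN mCherry libraries.

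GC content moved with these values over the whole transcriptome. The mean GC content of the transcripts, weighted by TPM, was 48.2% in both rescue libraries with Rnaseh1 plus Supt6 and 46.8% and 46.6% with Rnaseh1, against 48.4% in both with mCherry. In SN oocytes it was 46.6% and 46.5% with Rnaseh1, against 47.1% and 48.3% with mCherry, and in NSN oocytes 47.6% and 46.0% with Rnaseh1, against 47.5% and 47.4% with mCherry. Across all genes of the rescue set, the log2 difference between Rnaseh1 and mCherry had a rank correlation of -0.51 with transcript GC content (12603 genes, which are not independent replicates). The median was 0.42 in the 10% of genes lowest in GC and -1.63 in the 10% highest. In SN oocytes the correlation was -0.46 and these medians 0.37 and -0.81. For Rnaseh1 plus Supt6 against Rnaseh1 the correlation was 0.46 and the medians -0.34 and 1.16.

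**Figure D4:**
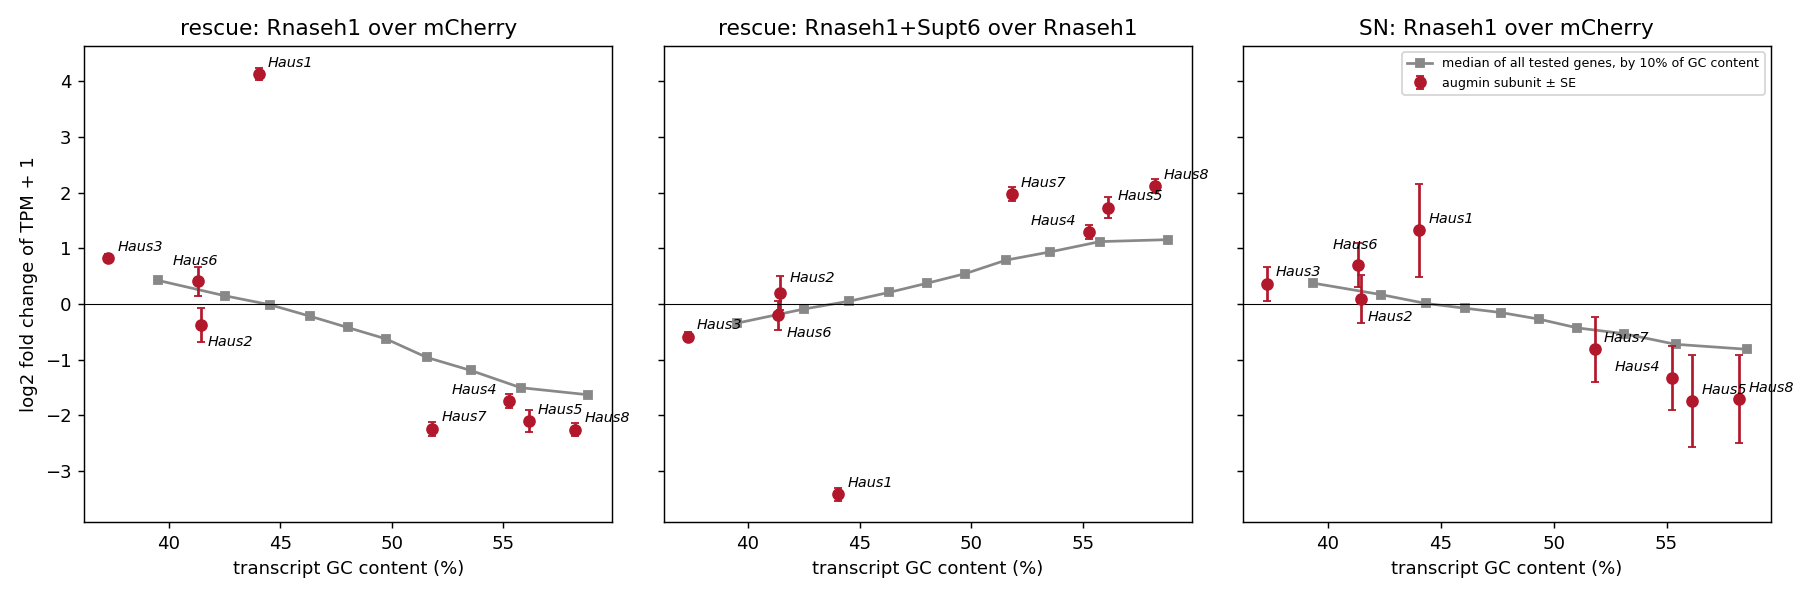
Log2 fold change (TPM + 1) of each augmin subunit (red, ± SE) against the GC content of its transcript (%), over the median of all tested genes in each 10% of genes by GC content (grey). In the first panel Haus1 stood at 4.13, far above the grey line, and Haus7 at -2.24, below it, while Haus6 at 0.41 lay close to its low-GC end.

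Once a trend with GC content was removed from each library, Haus1 differed by 4.08 between Rnaseh1 and mCherry in the rescue set, beside 4.13 as deposited. Haus7 was at -1.26, Haus8 at -0.58, Haus5 at -0.57 and Haus3 at 0.22, all smaller and in the same direction, and Haus4 was at -0.29 and no longer past the threshold. For Rnaseh1 plus Supt6 against Rnaseh1, Haus8 was at 0.89 (limma adjusted p = 0.0012), Haus7 at 1.15 (0.00024 by the same test) and Haus5 at 0.57 (limma adjusted p = 0.0499), while Haus4 at 0.18 (limma adjusted p = 0.24) and Haus3 at -0.11 (limma adjusted p = 0.25) no longer passed. In SN oocytes Haus1 was at 1.25, Haus5 at -0.99, Haus8 at -0.88, Haus4 at -0.62, Haus6 at 0.44 and Haus7 at -0.34, with Haus3 at -0.10 and Haus2 at -0.16. The trend cannot be told apart from an effect of Rnaseh1 that itself follows GC content.

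The scaling also set the balance of directions. In the rescue set, among genes past the threshold between Rnaseh1 and mCherry, 30.5% were higher as deposited, 52.5% with median centring, 51.6% with quantile normalization and 48.9% with the GC trend removed. Centring shifts all genes: their median went to 0.06 under centring, beside -0.52. Under centring and under quantile normalization Haus6 passed as higher, at 0.99 and 1.16, and Haus2 turned to 0.21 and 0.28. Haus1 and Haus3 stayed higher and Haus4, Haus5, Haus7 and Haus8 lower in that comparison under all 3 scalings.

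Genes that share sequence with the subunits were checked, since strand use in the counting is not given in the sources used here. Haus1 shares 129 exonic bases with Atp5a1, a mitochondrial ATP synthase gene on the opposite strand. Atp5a1 had the opposite order, at 135 and 139 TPM with Rnaseh1 plus Supt6 and 52.0 and 47.8 TPM with Rnaseh1, against 205 and 216 TPM with mCherry. Haus3 shares 108 exonic bases with Poln on the same strand, which had 4.36 to 19.7 TPM in the first table and 8.62 to 26.4 TPM in the rescue set. Haus5 shares 1952 exonic bases with Gm21982, a processed transcript on the same strand, which was listed at 0 in the first table and at 0 to 0.15 TPM in the rescue set. Haus2 and Haus8 share 138 and 116 exonic bases with Lrrc57 and Myo9b on the opposite strand. Haus5 has a processed pseudogene copy, Gm8146, 97.4% identical over 1860 bases, so its values are uncertain.

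The genes whose pattern was most like that of Haus1 were found by Pearson's r of log2(TPM + 1), taking for each of 6385 genes the lower of its r over the 8 libraries of the first table and over the 6 of the rescue set. They were Mrps33 (0.992), a mitochondrial ribosomal protein gene, Aig1 (0.991), Cenpk (0.99), a centromere protein gene, Mrpl42 (0.989), another mitochondrial ribosomal protein gene, and Hypk (0.989), a partner of the N-terminal acetylation machinery. Among the subunits, Haus6 had place 881 at 0.61 and Haus3 place 916 at 0.57. Haus4, Haus5, Haus8 and Haus7 had places 5574, 5580, 5818 and 6104, at -0.98, -0.98, -0.99 and -0.99. Libraries of the same group are among these points. In the first table, Haus1 differed between replicates 1 and 2 by -2.39 in NSN Rnaseh1 and by 1.77 in SN mCherry (log2 scale). The values therefore describe a shared pattern over libraries, within groups as well as between them, and carry no p.

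The partners of augmin were measured from a list of the gamma-tubulin ring complex and its adaptors, with 9 of 10 genes tested. With Rnaseh1 against mCherry in the rescue set, 1 was past the threshold as higher and 5 as lower, where 66.5% of all genes were past it, 20.3% higher and 46.2% lower. The median log2 difference was -0.54, beside -0.52 for all genes. The messenger RNA of gamma-tubulin was far lower. Tubg1 was at 3.2 ± 0.389 TPM with Rnaseh1, against 43.3 ± 6.12 TPM with mCherry (-3.40). Tubg2 was at 12.2 ± 0.325 TPM, against 116 ± 0.877 TPM (-3.15), with SD and n = 2 each. Their transcripts held 57.2% and 57.3% G and C. The 10% of all genes around 55.8% GC had a median of -1.50, and the 10% around 58.8% had -1.63. Tubgcp2 and Tubgcp3, ring subunits, were at -1.72 and -1.76. Nedd1, the adaptor that augmin binds, was at 78.5 ± 6.3 TPM with Rnaseh1, against 103 ± 26.98 TPM with mCherry (-0.36, SE 0.18), and was not past the threshold.

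With Rnaseh1 plus Supt6 against Rnaseh1, 6 of the 9 rose and 1 fell in limma, beside 41.6% of all genes higher and 17.4% lower. Tubg1 rose by 3.04 (adjusted p = 1e-05), Tubg2 by 2.72 (2.9e-06), Tubgcp2 by 1.39 (0.00017) and Mzt2, a small ring component, by 0.87 (0.0014) on the log2 scale, each p being limma's adjusted p. Nedd1 rose to 156 ± 8.53 TPM with Rnaseh1 plus Supt6, against 78.5 ± 6.3 TPM with Rnaseh1 (0.98, SE 0.18, limma adjusted p = 0.0025). Against mCherry, 0 rose and 1 fell with Rnaseh1 plus Supt6, where 13.3% of all genes passed: Tubg2, by 0.43 on the log2 scale (-0.43, limma adjusted p = 0.044). Nedd1 did not pass there, at 156 ± 8.53 TPM against 103 ± 26.98 TPM with mCherry (0.62, SE 0.18, limma adjusted p = 0.063). In the libraries of SN and NSN oocytes 0 of the 9 passed in limma in any of the 5 comparisons, with 3 genes at an unadjusted p under 0.05 in SN oocytes (Rnaseh1 against mCherry) and 0 in the other 4 comparisons. In SN oocytes Tubgcp4 was at 1.86 and Tubg2 at -2.94, each at limma adjusted p = 0.61.

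A list of 18 other spindle genes had 2 past the threshold as higher and 10 as lower with Rnaseh1 against mCherry in the rescue set, beside the same 66.5% of all genes, with a median of -0.56 beside -0.52. Plk1, a mitotic kinase, was at 12.8 ± 1.58 TPM with Rnaseh1, against 246 ± 4.62 TPM with mCherry (-4.17). Pcnt, the scaffold of the acentriolar organizing centres, was at 16.8 ± 1.58 TPM, against 179 ± 1.24 TPM (-3.34). Aurka, a kinase found at those centres, was at 55.2 ± 6.96 TPM, against 333 ± 15.6 TPM (-2.58), with SD and n = 2 each. Transcript GC content was 56.0% for Plk1, 55.4% for Pcnt and 51.4% for Aurka. With Rnaseh1 plus Supt6 against Rnaseh1, 11 of the 18 rose and 1 fell in limma, where 58.9% of all genes passed, 41.6% higher and 17.4% lower. The rises were led by Plk1 at 3.38 (adjusted p = 2.1e-06) and Aurka at 2.48 (adjusted p = 3.9e-06). Against mCherry, 6 of the 18 passed beside 13.3% of all genes: 2 rose, among them Ran at 0.68 (adjusted p = 0.018), and 4 fell, among them Kifc1 at -1.10 (adjusted p = 0.0039) and Pcnt at -0.92 (adjusted p = 0.0094). In the libraries of SN and NSN oocytes 0 of the 18 passed in limma in any comparison, with 0 or 1 gene at an unadjusted p under 0.05 in each.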

How the data were processed

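Members and gene lists were chosen with earlier results of these data known. The deposited values are TPM per gene, made by the authors, 1 column per library, scaled to 1000000 in each library. Per the submitters' processing notes, the tools were RSEM 1.3.3, STAR 2.7.0d, DESeq2 and Trim Galore 0.6.7 and the build mm10, with no role stated. RSEM divides reads between similar transcripts, which touches genes with copies. TPM keeps no depth, so counting error is unknown and count tests were not run.

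Each table was fitted separately with limma 3.58.1 in R 4.3.3 (lmFit, contrasts.fit, eBayes with a trend) on log2(TPM + 1), which understates the change of low genes. Genes at 1 TPM or more in at least 2 libraries were tested, all groups of a table sharing one estimate of the spread, with Benjamini-Hochberg adjustment over all genes and a threshold of 0.05. The fit was run on simulated independent normal values to check its mean estimates of planted shifts. That simulation held no GC trend and no pair of unlike replicates, so it does not test the calls in these data. No p is given for the rescue comparison of Rnaseh1 with mCherry, nor for Haus1 in comparisons that share its libraries. Gene identifiers of the first table were matched to symbols (34611 matched). Transcript GC content came from GENCODE M21 (97.1% and 98.0% of tested genes), promoters from RefSeq, and copies from BLAST 2.17.0 at 90% identity or more over at least 500 bases. All 8 subunits, Rnaseh1, Supt6, up to 4 list members per comparison with the smallest p, and the 5 genes most like Haus1 among genes with a mean of at least 5 TPM in both tables were named. Nedd1 was also given in comparisons outside that rule, as the adaptor that augmin binds, after its values were seen. Alternatives were other pseudocounts (0.1 and 5), filters, scalings, removal of a GC trend (lowess, span 0.3), left-out libraries and a replicate block.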

Additional observations from a re-analysis of the deposited data

How the results depend on the processing

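The counts of subunits past the threshold kept within 1.5 times under every alternative run, except in 2 comparisons. For Rnaseh1 plus Supt6 against mCherry the count of 1 was Haus1 alone, which chose the family, so that count is a description. It became 2, with Haus4 added, under some settings. These were a pseudocount of 5 and a filter of 5 TPM, where 16.6% and 21.3% of all genes passed. The others were quantile normalization and a fit of the groups compared alone, where 13.5% and 19.2% did. That count also moved with single libraries left out, where Haus1 was at 0.58 to 0.85. For SN against NSN with Rnaseh1 the count of 0 became 1 (Haus8, -1.60, limma adjusted p = 0.049) with SN mCherry replicate 2 and NSN Rnaseh1 replicate 2 both left out, where 55 genes passed as higher and 283 as lower of 12283 tested. Without Haus1, the count of 5 for Rnaseh1 plus Supt6 against Rnaseh1 became 3 with the GC trend removed, where 50.1% of all genes passed. The cause was not tested.

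Of 1192 fold changes of single subunits under alternatives, 1126 kept their direction and side of the threshold, 7 lost and 11 gained a call, and 48 reversed, 0 of them past the threshold. Removal of the GC trend reversed Haus2 (-0.16) and Haus3 (-0.10) in SN oocytes, Haus3 between the mCherry stages (0.11), Haus5 (0.0013) and Haus8 (0.30) for Rnaseh1 plus Supt6 against mCherry, and Haus6 (0.013) for Rnaseh1 plus Supt6 against Rnaseh1. Median centring reversed Haus3 in NSN oocytes (0.22) and Haus2 in the rescue set (0.21 for Rnaseh1 against mCherry, -0.31 for Rnaseh1 plus Supt6 against Rnaseh1). Quantile normalization reversed Haus2 in the same comparisons (0.28 and -0.37) and Haus1 (0.016) and Haus7 (-0.029) between the Rnaseh1 stages. With SN mCherry replicate 2 and NSN Rnaseh1 replicate 2 left out, Haus1 (-0.31), Haus5 (0.0078) and Haus7 (0.28) reversed in NSN oocytes, Haus1 (0.44) and Haus5 (-0.81) between the mCherry stages, and Haus1 (1.19), Haus2 (0.038) and Haus7 (-0.78) between the Rnaseh1 stages.

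With single libraries left out, reversed values had these ranges. For Rnaseh1 in NSN oocytes they were -0.31 to 2.08 (Haus1), -0.29 to 0.086 (Haus3), -1.34 to 0.0078 (Haus5) and -1.45 to 0.28 (Haus7). For the interaction they were -0.76 to 1.64 (Haus1), -1.31 to 0.014 (Haus4), -2.26 to 0.11 (Haus5), -1.10 to 0.64 (Haus7) and -1.84 to 0.40 (Haus8). Between the mCherry stages they were -1.33 to 0.44 (Haus1), -0.68 to 0.61 (Haus4), -0.81 to 1.56 (Haus5) and -1.17 to 1.07 (Haus8). Between the Rnaseh1 stages they were -1.20 to 1.19 (Haus1), -0.40 to 0.038 (Haus2), -0.78 to 0.96 (Haus7) and -1.60 to 0.060 (Haus8). In the rescue set they were -0.10 to 0.51 for Haus6 (Rnaseh1 plus Supt6 against mCherry) and -0.15 to 0.56 for Haus2 (against Rnaseh1). A group left with 1 library is assumed to vary like the others.

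The labels do not say whether replicate numbers pair the libraries. Between groups, the replicate differences had r from -0.51 to 0.17 in the first table and -0.00048 to 0.038 in the rescue set. With 2 libraries per group, such an r cannot exclude pairing. With the replicate number as a block, all 64 fold changes kept direction and call. Without Haus1, which chose the family, 5, 0 and 5 subunits were past the threshold in the rescue comparisons. In the first table it was 0. TPM without depth, 2 libraries per group and low Haus2 values limit the precision.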
